A study of Botryllus schlosseri with 78 samples.

Results

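A pair of sorts of candidate stem cells of the colonial tunicate Botryllus schlosseri were compared across 137 transcripts of the allorecognition system: cells positive for integrin alpha-6 (IA6) and cells positive for aldehyde dehydrogenase (ALDH). The members were 12 of the 77 libraries with values. They were chosen by their labels: 8 IA6-positive libraries from the individuals 79C, 79G, 81A and 81C, with 2 libraries each, and 4 ALDH-positive libraries from the individuals 1, 2B, 6 and 7, with 1 each. The labels name ALDH individuals 1 and 7 losers, and 2B and 6 winners. They give no age, strain or treatment for these animals. Cells were sorted by flow cytometry, RNA was made into poly-A libraries, and paired ends were sequenced. Beside these stood the cells left by each sort, with 4 IA6-negative libraries from 81A and 81C (2 each) and 4 ALDH-negative libraries from the same 4 ALDH individuals. The individuals 79C and 79G have no negative library.

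Botryllus colonies that touch either fuse their blood vessels or reject each other, and the outcome follows the highly variable Fuhc locus. After fusion, stem cells in the shared blood can seed the germline and tissues of the partner, so that one genotype may displace the other. Integrin alpha-6, a subunit of receptors for the extracellular matrix, and the activity of aldehyde dehydrogenase, an enzyme of retinoid and aldehyde metabolism, are both used in this animal to enrich for such cells. Fester-family proteins are highly polymorphic membrane receptors that act in the allorecognition response of Botryllus. In vertebrate immune cells, receptors of a comparable kind signal through kinases such as SYK, through phosphatases such as SHP2, and through adaptors that lead to Ras, Rac and transcription factors.

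The table held 45 transcripts named FF and a number, taken here for fester-family receptors, and 69 named FcoR, whose sequences were found, per the series record, in searches that began from fester genes. The rest were 19 transcripts of signalling proteins and 4 of the Fuhc locus. Values are taken as TPM scaled by TMM factors, a level per transcript length, and the value of an IA6 individual is the mean of its 2 libraries unless stated. Library sums over the table ran from 749670 to 1150639 in IA6-positive cells and from 753232 to 975185 in ALDH-positive cells. They are therefore close to shares of these 137 transcripts, and a higher share of some goes with a lower share of others. The labels state 20000000 reads per sample but no read total of a library, so depth is unknown and no floor can be set for a value of 0. None of the markers listed for the sorts, the germline, haemocytes, vasculature or muscle is in the table (0 of 23), so the sort labels could not be checked, and other cell types among the sorted cells could not be looked for. In such bulk samples, fewer cells of a type and less RNA per cell cannot be told apart.

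No individual gave both sorts. The labels name 2 RNA kits and 2 sequencing centres without assigning a library to either, so the sort, the individual and the batch cannot be told apart in any comparison below. The labels also do not say whether the 2 libraries of an IA6 individual came from separate sorts. Across transcripts, log2 values correlated at 0.801 to 0.919 between the 2 libraries of an individual and fraction (6 pairs). They correlated at 0.407 to 0.819 between individuals of the same sort and at 0.463 to 0.726 between the sorts, positive and negative libraries together. No pair of libraries held identical values. The opposite fractions of an individual correlated at 0.740 to 0.934 (12 pairs). The lowest of these was individual 7, whose ALDH-negative library correlated at 0.740 with its positive library and at 0.775 with the positive library of 2B. In this negative library 8 receptors were at 1000 or more that were at 0 in the positive library of the same individual, and all 8 were present in individual 2B. FF25, for example, stood at 5093 in the negative library of 7, at 0 in the positive library of 7 and at 31034 in the positive library of 2B. Individual 6 had 8 receptors, and individual 1 had 5, at 1000 or more in the positive and at 0 in the negative library. The main calls and totals that use the negative library of 7 are given with and without it. FF25 was picked after its values were seen.

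Of the 90 transcripts tested between the positive fractions, 2 passed an adjusted p of 0.05 (2.22% of those tested). The receptor FF19 was lower in IA6-positive cells and the small GTPase Rac was higher (limma on log2(value + 1), 1 mean per individual, 4 against 4, Benjamini-Hochberg over all 90). Another 8 had an unadjusted p below 0.05, 10 in all. The median log2 difference, IA6 minus ALDH, was -0.26, with 39 transcripts above 0 and 51 below. Only the scaling that divides by the summed signalling and Fuhc values moved this median by over 0.1 among the scalings tried, by -0.21, and FF19 and Rac passed under it too. The number of calls varied with the ALDH individuals kept, and the filter and group size changed with them. It was 9 of 105 tested for the winners alone and 0 of 105 for the losers alone (9 at an unadjusted p below 0.05 in limma). Without individual 1 it was 4 of 95. Among the 9 for the winners, FF14, FF18, FF19, FF25, FcoR64 and FcoR75 were below 1 in every IA6 individual. They met the filter through 2B and 6 alone. FF2, also among the 9, was below 1 in 2B and 6 and met the filter through the IA6 individuals alone. The same held for FF2 among the 4 calls without individual 1, since 7 was listed at 0. The individuals of the sorts did not overlap for 3 transcripts higher in IA6 (3.33% of the 90: Rac, VAV and FcoR4) and for 3 higher in ALDH (3.33%: FF19, FF12 and FcoR36).

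FF19 was present in every ALDH-positive library and in none of the IA6-positive ones at a value of 1. It stood at 1974, 5475, 3493 and 5399.5 in ALDH individuals 1, 2B, 6 and 7. Of the 8 IA6-positive libraries, 6 were listed at 0 and those numbered 1 of 81A and 81C stood at 0.001 and 0.003. FF19 was the only receptor at a value of 1 or more in all 4 individuals of one sort and in none of the other, and no receptor did so for IA6. FF19 thus met the filter for testing through the ALDH individuals alone. The log2 difference was -11.88 ± 1.55 (SE, n = 4 and 4, limma adjusted p = 0.00426). No fold is given, since the group is listed at or near 0. The call was lost with the losers 1 and 7 alone on the ALDH side (adjusted p = 0.0672), and the other 23 of 24 alternatives kept it.

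In the negative fractions FF19 was found in both sorts. The IA6-negative libraries of 81A stood at 0 and 210.1 and those of 81C at 0.005 and 1987, so in both individuals the library numbered 2 held the transcript at a value of 1 or more and the library numbered 1 did not. The ALDH-negative libraries stood at 3104, 3771, 3148 and 4187, within the range of the ALDH-positive ones. The 3 whole-blood libraries of other individuals lay between 0 and 0.042.

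FF12 was low in IA6-positive cells but not absent, and was among the 5 transcripts of smallest p. The 2 libraries of an IA6-positive individual stood at 1403 and 0 in 79C, 1775 and 1304 in 79G, 2010 and 2648 in 81A, and 1378 and 1314 in 81C. In ALDH-positive cells FF12 stood at 28433, 22235, 10334 and 11019 in 1, 2B, 6 and 7. Every ALDH value was above every IA6 value. On the log2 scale the difference was -4.66 ± 1.24 (SE, limma adjusted p = 0.156) and did not pass. With all libraries kept, FF12 did pass with a pseudocount of 10 or 100, means on the value scale, or both fractions in one fit. Without library 2 of 79C, which is listed at 0, the difference was -3.35 and the limma adjusted p 0.00246. That setting was chosen after the data were seen. FF12 passed in 8 of 24 alternatives, with adjusted p between 0.0019 and 0.406.

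**Figure D1:**
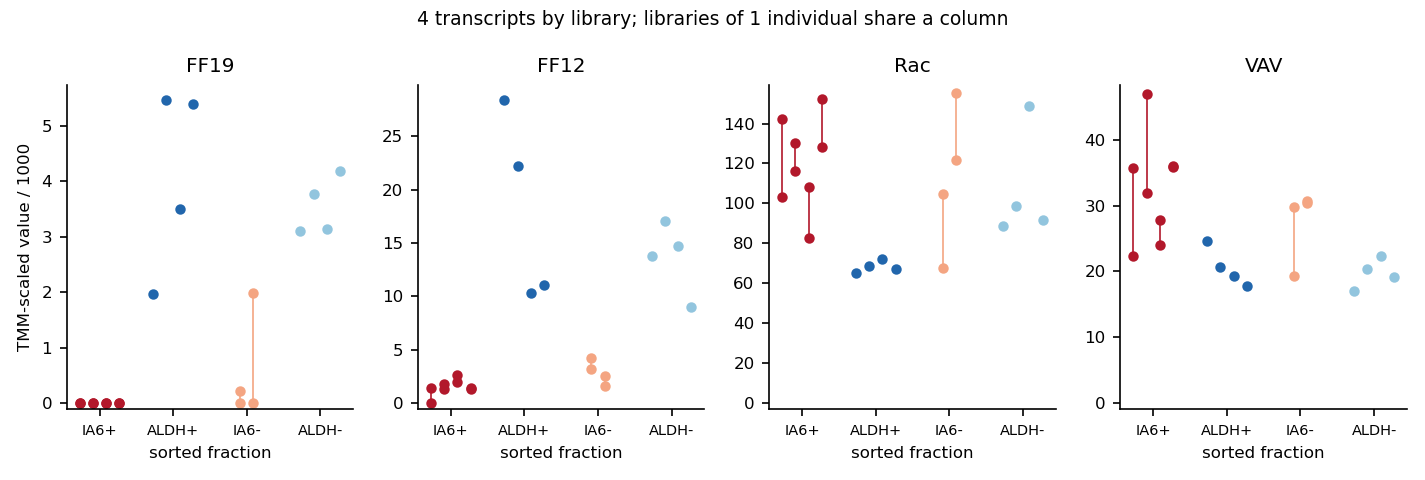
Values of FF19, FF12, Rac and VAV (vertical axis, TMM-scaled value divided by 1000, each panel with its own scale from 0) in the positive and negative fractions of both sorts (horizontal axis). Each point is 1 library, and a vertical line joins the 2 libraries of an IA6 individual. FF19 lies at 0 in all IA6-positive libraries on this scale, FF12 is at most 2648 there against at least 10334 in ALDH-positive cells, and the 4 ALDH-positive Rac points lie between 64981 and 71914.

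FF16 had the third smallest p among the FF transcripts but overlapped between the sorts. It stood at 0.086, 573, 0.178 and 262 in 79C, 79G, 81A and 81C and at 257, 968, 395 and 4749.7 in 1, 2B, 6 and 7. The log2 difference was -6.38 ± 2.34 (SE, limma adjusted p = 0.301).

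Among FF transcripts the spread between individuals of a sort exceeded the gap between the sorts. Of the 45 FF transcripts, 33 were at a value of 1 or more in the mean of at least 1 individual, and 18 passed the filter for testing, a value of at least 1 in 4 of the 8 individuals. Of these 18, 1 passed the test. The median absolute difference between the sorts was 2.77 on the log2 scale for the FF transcripts tested, against a median SD of 4.07 between individuals of one sort. The 2 libraries of an IA6 individual differed by a median of 0.306, where pairs with both libraries listed at 0 count as no difference. Over all 90 transcripts the first 2 of these values were 1.25 and 2.97. For the FcoR transcripts tested, the 2 libraries differed by a median of 0.913.

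FF22, the FF transcript with the highest mean, varied widely among the individuals of each sort. In IA6-positive cells it stood at 33873, 4629.7, 0 and 48236 in 79C, 79G, 81A and 81C. In ALDH-positive cells it stood at 8399, 45813, 62.6 and 38558 in 1, 2B, 6 and 7. The groups overlapped over most of their range (log2 difference -1.75 ± 3.62, limma adjusted p = 0.784).

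FF3 was close to level in 6 individuals. It stood at 12022, 17088 and 16539 in 79C, 81A and 81C and at 16653, 17677 and 16789 in 2B, 6 and 7, but was listed at 0 in 79G and at 521 in 1. Neither sort was set apart (-2.40 ± 3.14, limma adjusted p = 0.654).

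FF29 was an abundant transcript of 2 ALDH individuals. It reached 37964 in 1 and 28739.8 in 6, against 72.2 in 2B and 149 in 7. In IA6 cells it stood at 872 and 903 in 79C and 79G and at 0 in 81A and 81C. The high individuals were a loser and a winner, and the difference between the sorts did not pass (-5.99 ± 3.37, limma adjusted p = 0.422).

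FF44 was present in all 8 individuals. It stood at 2488, 6233, 10389 and 6048 in 79C, 79G, 81A and 81C and at 12912, 10537, 11261 and 7979.7 in 1, 2B, 6 and 7. Of the IA6 individuals, 81A alone was above an ALDH individual (-0.98 ± 0.44, limma adjusted p = 0.301).

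A small set of FF transcripts was common to all 8 individuals, namely FF6, FF12, FF13, FF15 and FF44. FF6, FF13 and FF15 were picked after their values were seen. FF15 was the steadiest of these in IA6 cells, at 8268 ± 1251 (SD, n = 4) against 4210.1 ± 3117 in ALDH cells. FF13 averaged 5279 ± 2084 against 9870.4 ± 4487, and FF6 3118 ± 2554 against 1505 ± 1289. For FF6, FF13 and FF15 the individuals of the sorts overlapped.

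Some FF transcripts belonged to a single individual. By a rule chosen after the values were seen, at least 1000 in the holder and below 100 in the other 7, there were 7 such FF transcripts of 45, 2 in IA6 individuals and 5 in ALDH individuals. FF37 stood at 24098 in 81A and FF21 at 16334 in 79G. FF39 and FF38 stood at 22576 and 7479.7 in 1, FF45 at 4171 in 2B, FF40 at 15873 in 6 and FF33 at 16079 in 7. The negative fraction carried the same mark where there was one: FF37 stood at 19989 in the IA6-negative mean of 81A, and FF39, FF38, FF45, FF40 and FF33 at 12302, 4827, 3509.8, 13822 and 8576 in the ALDH-negative library of the holder. Outside the holders, FF37 stood at 491 in the IA6-negative mean of 81C, FF21 at 85.2 in that of 81A, and FF45 at 1158 in the ALDH-negative library of 7. The same rule gave 3 of the 69 FcoR transcripts, all in ALDH individuals: FcoR35 in 2B, and FcoR40 and FcoR64 in 6. Of these, FcoR64 was listed at 0 in the ALDH-negative library of its holder. In negative cells of other individuals, FcoR35 stood at 1196 in 7, FcoR64 at 111 in 2B and FcoR40 at 639 in the mean of 81A.

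The leading FF transcript accordingly varied. FF22 led in 79C, 81C, 2B and 7, FF29 in 1 and 6, FF5 in 79G at 16977 and FF37 in 81A. In 81C, FF22 made up 41.2% of the FF total. Between 2 and 4 transcripts held at least 50% of the FF total in every individual. FF5 was picked after its values were seen.

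**Figure D2:**
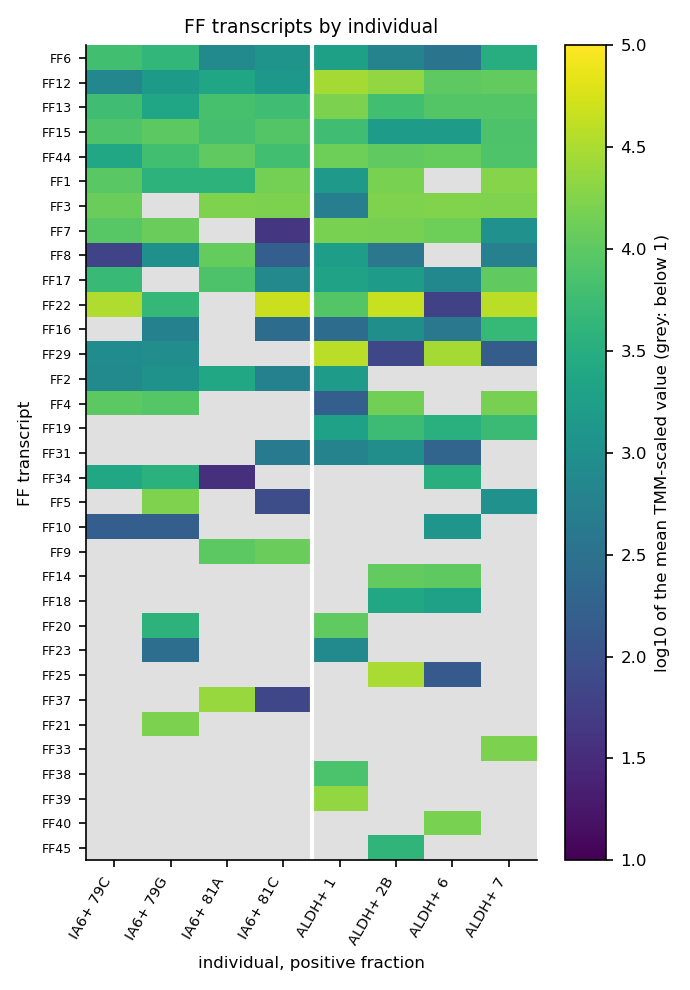
The 33 FF transcripts found at a value of 1 or more in at least 1 individual (rows, ordered by the number of individuals that hold them) in the positive fractions of the 4 IA6 and 4 ALDH individuals (columns). Colour gives log10 of the mean TMM-scaled value and grey marks a value below 1. The top 5 rows are filled in all 8 individuals, FF19 is filled in the 4 ALDH columns alone, and several lower rows are filled in 1 column.

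The summed FF values were lower in IA6-positive cells in every individual. They came to 107070.3, 98303, 103455 and 116958 in 79C, 79G, 81A and 81C, and to 179424, 206313, 128792 and 167120.3 in 1, 2B, 6 and 7. The groups did not overlap. The means were 106447 ± 7877 and 170412 ± 32214 (SD, n = 4 each), and the log2 difference was -0.66, a ratio of 0.632. The exact two-sided permutation p was 0.0286, the smallest that 4 against 4 allows. With Benjamini-Hochberg adjustment over the 6 tests on totals, numbers and sets described here, the exact p became 0.0571, and none of the 6 then passed. As a share of the library sum the FF total was 11.9 ± 1.60% against 19.1 ± 1.69%.

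FF12 and FF29 made up 25.8% and 25.5% of the gap between the mean FF totals, FF25 12.2%, FF7 9.09% and FF39 8.82%. The FF total without FF12 was 0.696 of the ALDH value (exact permutation p = 0.0286). Without FF12 and FF19 it was 0.715, and the exact permutation p was 0.0571. Both settings were chosen after the data were seen, as were FF25, FF7 and FF39. In 9 FF transcripts the mean was higher in IA6 cells, FF37, FF9 and FF21 foremost.

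The FcoR transcripts gave no call: 0 of the 49 tested, out of 69, passed in limma, near the 2.22% of all transcripts, and 3 had an unadjusted p below 0.05. Of the 49, 21 were above 0 and 28 below, with a median log2 difference of -0.76. The median absolute difference of 1.81 was below the median SD of 3.90 between individuals of a sort. Of 196 combinations of an FcoR transcript and an IA6 individual, 50 (25.5%) were found in 1 of the 2 libraries only, against 6 of 72 (8.33%) for FF and 0 of 76 for signalling transcripts.

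FcoR72 led the FcoR transcripts in most individuals. It stood at 19606, 18803, 30153 and 41479 in 79C, 79G, 81A and 81C and at 23348, 14713, 10484 and 25464 in 1, 2B, 6 and 7. The highest values were those of 81A and 81C, but 79C and 79G lay inside the ALDH range (log2 difference 0.54 ± 0.37, limma adjusted p = 0.527).

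FcoR48 was high in every IA6 individual and divided the ALDH individuals. It stood at 17196, 19713, 17921 and 9225 in 79C, 79G, 81A and 81C. In 1 and 6 it was listed at 0, while 2B stood at 4128 and 7 at 27202 (log2 difference 7.16 ± 3.35, limma adjusted p = 0.301). FcoR12 split both sorts. It stood at 7290.2 and 8076 in 79C and 79G, 13.4 and 0 in 81A and 81C, 0 in 1 and 6, 7182 in 2B and 26667 in 7 (0.01 ± 4.63, limma adjusted p = 0.999).

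FcoR1 was present in all 8, at 4371, 662, 6237 and 5751 in 79C, 79G, 81A and 81C and at 1691, 7402, 8995 and 6923 in 1, 2B, 6 and 7. Each sort held 1 low individual, 79G and 1, and the difference did not pass (-0.76 ± 0.83, limma adjusted p = 0.613). FcoR23 was found in 79C and 79G at 1865 and 1168 and was listed at 0 in 81A and 81C. In ALDH cells it stood at 12381, 6942 and 9432 in 1, 2B and 6 and was listed at 0 in 7 (-4.77 ± 3.99, limma adjusted p = 0.580).

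FcoR4 and FcoR36, picked after their values were seen, did not overlap between the sorts as means of individuals, and neither passed in limma. FcoR4 stood at 2449.6, 2220.2, 3707 and 3617 in the IA6 individuals and at 1732, 2038, 1042 and 1116 in the ALDH individuals. FcoR36 went the other way, at 496, 449, 159.7 and 472 against 853, 808, 1638 and 844. By library both overlapped. FcoR4 stood at 1721 in library 1 of 79G, and FcoR36 at 993 and 0 in the libraries of 79C.

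The summed FcoR values did not separate the sorts. They were 104121, 101389.8, 104817 and 113574 in 79C, 79G, 81A and 81C, and 132594, 110868, 74783 and 161036 in 1, 2B, 6 and 7. The means were 105976 ± 5277 and 119820.4 ± 36379 (exact two-sided permutation p = 0.629, adjusted 0.629). ALDH individuals 6 and 7 lay on either side of the whole IA6 group. When log2 values were averaged over the family and not summed, which gives rare transcripts more weight, the FcoR difference was -0.84 (exact permutation p = 0.0286). The signalling and Fuhc transcripts together summed to 696991 ± 119814 and 597340.7 ± 66118 (exact permutation p = 0.229, adjusted 0.274). As a share of the library sum, which is what the receptors leave, they held 76.2 ± 2.82% against 67.5 ± 4.55%. In these shares the individuals of the sorts did not overlap.

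**Figure D3:**
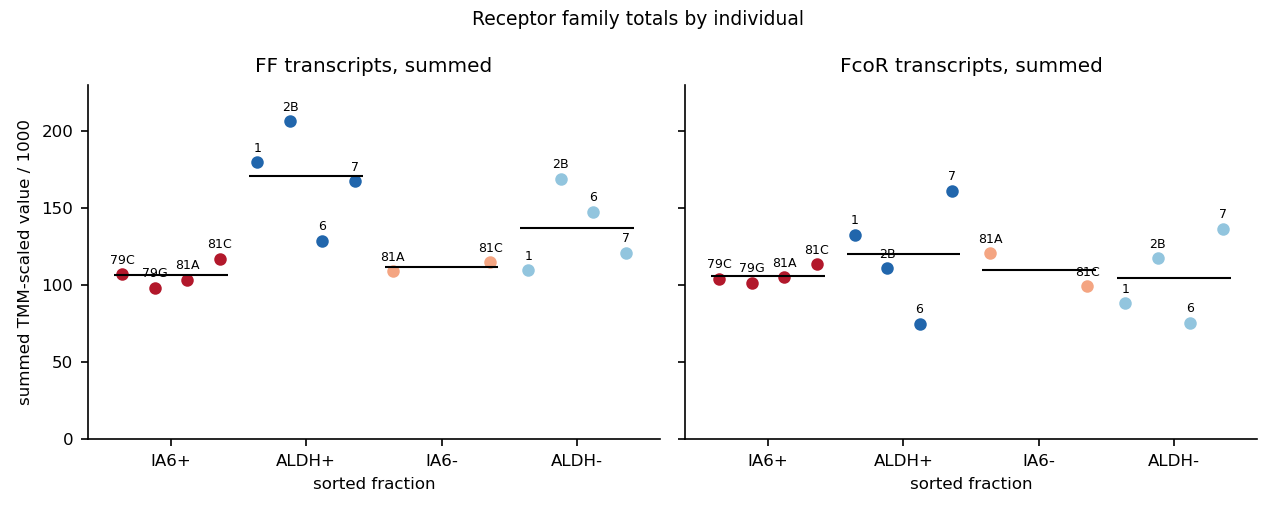
Summed values of the FF (left) and FcoR (right) transcripts (vertical axis, TMM-scaled value divided by 1000, from 0) in the positive and negative fractions of both sorts (horizontal axis). Each point is 1 individual, named beside it, and the bar is the mean of the group. The 4 IA6-positive FF totals, at most 116958, lie below the 4 ALDH-positive ones, at least 128792, whereas the FcoR totals overlap.

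The number of receptors found was lower on average in IA6-positive individuals. At a value of at least 1, averaged over libraries, 15 ± 2.27 FF transcripts were found in IA6 individuals (12.5 to 18) and 19.25 ± 1.71 in ALDH individuals (17 to 21; exact two-sided permutation p = 0.0571, adjusted 0.0857). For FcoR the numbers were 37.4 ± 1.44 (35.5 to 38.5) and 42.75 ± 3.86 (39 to 48) (exact permutation p = 0.0286, adjusted 0.0571). Neither difference passed after adjustment. For FcoR the unadjusted p was higher when detection began at 1000 (3.0 fewer, exact permutation p = 0.171). It was also higher with the IA6 libraries numbered 1 or 2 alone (7.5 and 3.25 fewer, exact permutation p = 0.0857 and 0.371). Detection depends on depth, and the smallest value not below 1 lay, by library, between 23.6 and 56.3 in IA6-positive and between 1.18 and 62.6 in ALDH-positive libraries. The part of depth in these numbers was not tested.

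The overlap of receptor sets was compared within and between the sorts. A receptor counted where the mean of an individual was at least 1, so an IA6 set drew on 2 libraries and an ALDH set on 1. The indices of the sorts are therefore not on a like basis. The Jaccard index, the number of receptors shared by 2 individuals divided by the number found in either, was 0.652 ± 0.0631 within IA6 (6 pairs), 0.558 ± 0.0816 within ALDH (6 pairs) and 0.561 ± 0.0499 between the sorts (16 pairs). Over the pooled pairs of both sorts, within minus between was 0.0437 (exact one-sided permutation test, p = 0.0286, the smallest it can give, adjusted 0.0571). The mean within ALDH was no higher than that between the sorts, and the sorts were not tested one by one. Within IA6 the highest values were those of 79C with 79G (0.757) and 81A with 81C (0.70), and the 4 other IA6 pairs lay between 0.597 and 0.627. Without 79C, 79G, 81A or 81C in turn the difference was 0.0282, 0.0230, 0.0246 and 0.0362, and the exact one-sided permutation p lay between 0.143 and 0.257. Relatedness of the individuals is not given in the labels, and its part in the overlap was not tested.

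Some receptors were high in one pair of IA6 individuals and low in the other pair. By a rule chosen after the values were seen, at least 1000 in both individuals of a pair and below 100 in the other 2 of the sort, 79C and 79G shared 8 receptors (FF4, FF7, FF34, FcoR10, FcoR12, FcoR18, FcoR23 and FcoR56), and 81A and 81C shared FF9. At a value of 1, 4 of the 8 were also found in 81A or 81C, namely FF7, FF34, FcoR10 and FcoR12. FcoR18, at 6350.0 and 8643 in 79C and 79G, was listed at 0 in the other 6 individuals. FF9, at 9755 in 81A and 12144 in 81C, was listed at 0 in the other 6. Of the other 4 pairs of IA6 individuals, 1 pair shared 1 receptor in this way and 3 shared none. In ALDH cells the largest such set was that of 2B and 7, with 4 FcoR transcripts, a winner and a loser. These receptors, other than FcoR12 and FcoR23, were picked after their values were seen.

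All 4 products of the Fuhc locus were found in every individual of both sorts, and none passed (0 of 4). BHF, a protein of this locus whose sequence follows fusion outcome, stood at 49127, 120988, 99321 and 49198 in 79C, 79G, 81A and 81C and at 71082, 141608, 64786 and 99056 in 1, 2B, 6 and 7. The sorts overlapped over most of their range (log2 difference -0.37 ± 0.36, limma adjusted p = 0.584). FuHc-Tm, named for the membrane-bound product, stood at 2548, 5479.9, 3958 and 2894 in IA6 individuals and at 6907, 7022, 2986 and 11249 in ALDH individuals. It was the Fuhc product with the largest difference, and 6 alone of the ALDH individuals lay in the IA6 range (-0.97 ± 0.44, 95% interval -1.98 to 0.04, limma adjusted p = 0.301).

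FuHc-Sec, named for the secreted product, stood at 36447, 28089, 22756 and 45509.7 in IA6 individuals and at 36527, 46123, 25835 and 14923 in ALDH individuals (0.17 ± 0.37, limma adjusted p = 0.784). HSP40L, a heat-shock family gene of the locus, stood at 15769.7, 8675, 2776 and 7601 against 5429, 5824, 3333 and 4160.5. 3 of 4 IA6 individuals were above every ALDH individual, and 81A was below them all. The 2 libraries differed widely, at 27441 and 4098 in 79C, 5365 and 11985 in 79G, and 9443 and 5759.7 in 81C, so the lower library of each lay below ALDH individual 2B (log2 difference 0.49 ± 0.45, limma adjusted p = 0.584).

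Signalling transcripts were found in every library and varied far less than receptors. Their median SD between individuals of a sort was 0.287 on the log2 scale, against 4.07 for FF and 3.90 for FcoR. Of the 19, 1 passed, 10 were above 0 and 9 below, and the median was 0.05. Roles below are those known from mammals.

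Rac, a small GTPase that organises actin in migrating and signalling cells, was higher in IA6-positive cells. The 2 libraries of an individual stood at 103218 and 142456 in 79C, 130440.4 and 116432 in 79G, 82477 and 108361 in 81A, and 128007 and 152216 in 81C. In ALDH-positive cells Rac was tightly grouped, at 64981, 68817, 71914 and 66957 in 1, 2B, 6 and 7. All 8 IA6 libraries were above all 4 ALDH libraries. Rac was 1.74-fold higher, a log2 difference of 0.80 ± 0.13 (SE, 95% interval 0.51 to 1.09, limma adjusted p = 0.00829). It passed in 19 of 24 alternatives and did not with the winners or the losers alone (adjusted p = 0.0520 and 0.0672), 81A and 81C alone (0.0853), IA6 libraries numbered 1 alone (0.117) or no trend in the variance (0.316).

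VAV, an exchange factor that activates Rac, had the next smallest p among the signalling transcripts. It stood at 29052, 39427, 25909 and 35931 in 79C, 79G, 81A and 81C and at 24609, 20657, 19252 and 17776 in 1, 2B, 6 and 7. The individuals did not overlap, but library 1 of 79C, at 22339.9, and library 2 of 81A, at 24066, lay below ALDH individual 1. The log2 difference of 0.64 ± 0.18 did not pass (limma adjusted p = 0.175), except with each library rescaled to the same sum (0.61, adjusted p = 0.0370).

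Of the other signalling transcripts none passed in limma. Among the 7 kinases the median log2 difference was 0.06, from -0.28 for ERK to 0.43 for PKC. SYK, the kinase that docks on activating immune receptors, differed by 0.06 ± 0.33, with 7574 ± 799 in IA6 and 7687 ± 3176 in ALDH cells. PAK1, a kinase that Rac activates, differed by 0.19 ± 0.44, with a 95% interval of -0.81 to 1.2. The Ras branch went both ways, with Ras at 0.43 ± 0.26, Raf at -0.05 ± 0.21 and MEK at 0.06 ± 0.14.

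The 2 phosphatases lay on either side of 0. SHIP, which removes a phosphate from a lipid messenger, differed by 0.33 ± 0.24, and SHP2, which docks on inhibitory receptors, by -0.22 ± 0.19. The adaptors and exchange factors other than VAV lay below 0, Grb2 at -0.16 ± 0.15, Sos at -0.26 ± 0.29 and Shc at -0.30 ± 0.18. The lipid enzymes PI3K and PLC-g differed by -0.11 ± 0.18 and -0.43 ± 0.42. Of the transcription factors, NF-kB stood at 0.65 ± 0.29 (adjusted p = 0.301) and NFAT at -0.28 ± 0.34. For ERK, PKC and the other signalling transcripts outside Rac and VAV, the 95% interval included 0.

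**Figure D4:**
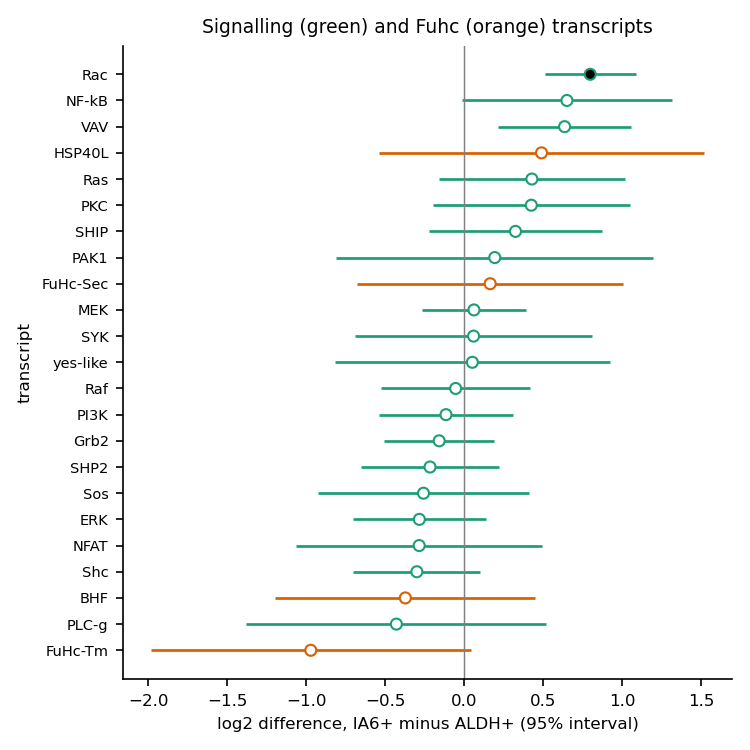
Log2 differences between IA6-positive and ALDH-positive cells (horizontal axis, above 0 is higher in IA6) for the 19 signalling transcripts in green and the 4 Fuhc products in orange (vertical axis, ordered by the difference). Points are estimates from limma over 4 individuals a sort, lines are 95% intervals, and a black point marks an adjusted p below 0.05. Rac is the black point at 0.80, VAV has an interval of 0.22 to 1.06 that lies above 0 without passing, and the other intervals include 0.

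The same contrast was made in the cells left by each sort. The negative fractions come from 6 of the 8 individuals, so the 2 comparisons are not independent. Of 104 transcripts tested between IA6-negative (2 individuals) and ALDH-negative cells (4 individuals), 11 passed (10.6%), 3 higher and 8 lower in IA6. The 3 higher ones, FF9, FF37 and FcoR37, were listed at 0 in every ALDH-negative library. They met the filter for testing through the IA6-negative individuals alone. FcoR37 was found in 1 of the 2 libraries of each, at 0 and 482 in 81A and at 187 and 0 in 81C. Of the lower ones, FF7, FF29 and FcoR23 were listed at 0 in both IA6-negative individuals and met the filter through the ALDH-negative ones alone. Without the ALDH-negative library of individual 7 there were also 11, 4 higher and 7 lower, of which 9 were the same. The others, FcoR19 and FcoR26, were listed at 0 in the remaining ALDH-negative libraries. These too met the filter through the IA6-negative individuals alone. Without individual 2B there were 0, with 18 at an unadjusted p below 0.05, and without individual 6 there was 1.

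Among the 11 were both FF transcripts with the clearest gap in the positive cells. FF19 differed by -7.11 ± 0.93 (limma adjusted p = 0.0103) and FF12 by -2.29 ± 0.43 (0.0238). FF12 stood at 3711 and 2045 in the IA6-negative means of 81A and 81C and at 13819.7, 17041, 14728 and 8954 in the ALDH-negative libraries. FuHc-Tm also passed there, at 1928 and 1465 against 16589.6, 9036, 6476 and 8117 (-2.55 ± 0.48, limma adjusted p = 0.0238). FF29 passed at -11.72 ± 2.68 (0.0394) and FcoR23 at -11.04 ± 1.97 (0.0238). Both were also listed at 0 in the positive cells of 81A and 81C. The IA6 individuals that held them, 79C and 79G, have no negative library. The adaptor Shc was lower (-1.21 ± 0.26, 0.0359). The remaining 5 were FF7, FcoR44, FF9, FF37 and FcoR37. In the positive cells FF7 and FF9 passed too when 81A and 81C were the only IA6 individuals. Without individual 7, Shc and FF37 did not pass (limma adjusted p = 0.0525 and 0.0532). The other 9 did, with FF19 at -7.03, FF12 at -2.48, FuHc-Tm at -2.62, FF29 at -12.95 and FcoR23 at -11.48.

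Rac did not pass in the negative cells. It stood at 104661 and 67706 in the IA6-negative libraries of 81A and at 121687 and 155063 in those of 81C. The ALDH-negative libraries stood at 88526, 98613, 148837 and 91719.7, each above the positive library of its individual. The log2 difference was 0.04 ± 0.30 (limma adjusted p = 0.989; -0.02 ± 0.36 without individual 7), and the groups overlapped.

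The gap in the positive cells minus the gap in the negative cells was tested directly over the 6 individuals with both fractions. Of 106 transcripts 0 passed in limma (0%), and 4 had an unadjusted p below 0.05. Without the ALDH-negative library of individual 7, and so without that individual, there were also 0. For Rac the value was 0.71 ± 0.35 (adjusted p = 0.792; 0.77 ± 0.35 without individual 7, adjusted p = 0.585), so a larger gap in positive than in negative cells was not shown. For FF19 it was -4.77 ± 0.76 (limma adjusted p = 0.118, and 0.505 without individual 7). On the IA6 side this rests on the negative libraries numbered 2, at 210.1 in 81A and 1987 in 81C. Without 81A the IA6 side is 81C alone, and no result is given for it. For FF12 it was -0.92 ± 0.52 (limma adjusted p = 0.792). Without individual 7 it was -0.92 ± 0.56 (limma adjusted p = 0.585).

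The FF total in the negative cells was 111799 ± 4249 in IA6 (n = 2) and 136697 ± 26744 in ALDH (n = 4), a log2 difference of -0.27. The exact two-sided permutation p was 0.267, where 0.0667 is the smallest that 15 assignments allow, and 0.80 when adjusted over the 3 totals. Without individual 7 the difference was -0.32 (exact permutation p = 0.40, where 0.1 is the smallest possible). ALDH individual 1, at 109398.8, lay between the 2 IA6 individuals. The FcoR total and the signalling and Fuhc total gave exact permutation p of 0.80 and 0.533 (adjusted 0.80 each), and 0.40 each without individual 7. Whether the FF gap differs between the fractions was not tested.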

How the data were processed

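The authors deposited 1 table of signal values. Its name gives TMM as the scaling but no unit, so TPM is an inference here. The tools named, per the submitters' processing notes, are kallisto, RSEM and Trim Galore, whose versions are not given in the sources used here. The table has 158 value columns, of which 77 could be matched to labelled libraries. The other 81 were left aside for want of a label. The 12 positive and 8 negative libraries and 3 of whole blood (23 in all) were used here. The members and lists were chosen with earlier results of these data known.

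Values were taken as log2(value + 1) and averaged per individual on that scale for limma 3.58.1 (R 4.3.3), whose empirical Bayes step followed a variance trend. P-values were adjusted by Benjamini-Hochberg over all transcripts tested, with a threshold of 0.05. A transcript was tested where at least as many individuals as the smallest group holds (4 of 8, or 2 of 6 in the negative fractions) had a value of at least 1. For the difference between fractions it had to pass in either fraction. Printed means are on the scale of the values. Where an arm of a comparison is left with 1 individual, that individual is assumed to vary like the others. Because it is not known whether libraries of an individual are separate sorts, p-values measure the spread between individuals only, with the batch unknown. Totals, numbers of receptors and set overlap were compared with exact permutation tests over individuals in Python 3.11.15 (numpy 2.4.6, scipy 1.17.1, pandas 2.3.3); figures used matplotlib 3.10.9. The fits were tested on simulated data.

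Named by rule were up to 10 transcripts per direction past the threshold, the 5 with the smallest p, the 5 transcripts of highest mean in each receptor family, the Fuhc products, and receptors found in all individuals of one sort and none of the other. The signalling transcripts were described as a list. Alternatives covered the pseudocount, filter, scaling, averaging, choice of library, model, and each individual left out.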

Additional observations from a re-analysis of the deposited data

Results flagged for a closer look

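In 7 of the 46 groups looked at, a single individual stood far from the other 3 of its sort. The measure was the gap to its nearest neighbour over the whole range on the log2 scale. A chance rate of about 1 in 20 holds for normally spread values only. Values listed at 0 are not spread in that way, so no excess over chance is read from the 7. For FF3 the low individuals were 79G in IA6 (gap over range 0.964) and 1 in ALDH (0.983). For FcoR1 they were the same individuals, 79G (0.848) and 1 (0.843). FF12 was low in 79C (0.869), where library 2 is listed at 0, FcoR48 was low in 81C (0.936), and FcoR23 was listed at 0 in 7 (0.939). No cause was tested.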

How the results depend on the processing

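FF19 and Rac kept their direction in all 24 alternatives tried. The positive fractions gave 2 calls, 1 higher and 1 lower. The lower calls became 2 with a pseudocount of 10 or 100, means on the value scale, both fractions in one fit, or without library 2 of 79C (added after the data were seen), in each case by the addition of FF12. With each library rescaled to the same sum, 2 were higher. With IA6 libraries numbered 1 alone, 0 were higher and 2 lower. Without the variance trend 1 passed, with 0 higher. Winners alone gave 9 calls of 105 tested (2 higher, 7 lower, Rac and FF12 not among them). Losers alone gave 0 of 105 in limma (0 higher, 0 lower, 9 at an unadjusted p below 0.05), and 81A and 81C alone 5 of 106 (2 higher, 3 lower). In these 3 settings a value of at least 1 in 2 individuals was enough for testing. The 2 higher with 81A and 81C alone, FF9 and FcoR54, were listed at 0 in every ALDH individual. With each individual left out in turn there were 2 to 4 calls, 1 to 2 higher and 1 to 2 lower; 4 came without individual 1.

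In the negative fractions, 11 calls became 7 with a pseudocount of 100, and the 3 higher calls became 1 with a pseudocount of 10 or 100, no filter, or a mean of at least 100. Leaving out individuals gave 0 (without 2B, in limma) to 11, with 0 to 4 higher and 0 to 7 lower, and 5 without 81A or 81C, 6 without 1 and 1 without 6. The difference between fractions gave 0 calls in each setting that kept both 81A and 81C.

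The FF total ran from -0.79 to -0.56 (log2) with individuals left out, each at an exact permutation p of 0.0571, the smallest that 4 against 3 allows. It was -0.48 without FF12 and FF19. The FcoR total was -0.84 as a mean of log2 values, 0.0058 with IA6 libraries numbered 2 alone, and -0.33 to 0.037 with individuals left out, the highest without 7. With each library rescaled to the same sum, the signalling and Fuhc total was 0.18 (exact permutation p = 0.0286). FcoR numbers differed by -3.0 at a detection value of 1000, by -7.5 and -3.25 with IA6 libraries numbered 1 and 2, and by -6.62 to -3.62 with individuals left out. Set overlap was 0.0341 at 100, 0.0249 at 1000, 0.0371 with IA6 libraries numbered 2, and 0.0230 to 0.0751 with individuals left out.

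Among single transcripts, none of them called, some turned sign. FF22 ran from -3.90 to 1.81 with individuals left out, the highest without 81A. FF3 was 1.22 with 81A and 81C alone and ran from -3.66 to 1.06 with individuals left out, the highest without 79G. FcoR12 was -0.36 and -0.54 at pseudocounts 10 and 100, -0.11 over the non-receptor sum, -0.74 with IA6 libraries numbered 1, -0.47 with losers, -5.68 with 81A and 81C, and -2.29 to 2.62 with individuals left out. FcoR1 was 0.13 and HSP40L -0.030 with 81A and 81C alone. FuHc-Sec was -0.040 over the non-receptor sum, -0.12 with winners, and -0.14 to 0.40 with individuals left out. The cause was not tested in any of these. No paired analysis was possible because no individual gave both sorts.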
